A study of Mus musculus with 6 samples.

Results

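The collagen genes of the mouse were examined in embryonic pancreas labelled as wild type or as Hox6 null. Members were the genes whose only symbol in the array's annotation has the form of a collagen chain, Col followed by the type, a and the chain number. They numbered 42 of 18193 genes, or 82 of 45037 probe sets (groups of short probes that together read 1 transcript), and a gene's values are those of its brightest probe set over the 6 arrays, with the others given beside it. By structure 11 were fibrillar, 9 network-forming, 9 FACIT (fibril-associated collagens with interrupted helices), 4 transmembrane, 5 beaded-filament, 2 multiplexin and 2 of other kinds. Col6a6 and Col28a1 were not analysed here. The study measured whole pancreas dissected at E12.5, an early stage of branching, with 3 wild type control samples and 3 Hox6 null samples, all of strain Bl6, each on 1 Affymetrix array. Hox6 is the paralogous group of Hoxa6, Hoxb6 and Hoxc6, transcription factors of embryonic patterning. Samples are labelled as biological replicates; how the Hox6 genes were disrupted and how many embryos, of which sex or litter, entered a sample are not stated. P-values therefore reflect sample-to-sample spread alone.

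Collagens are secreted or membrane-bound proteins in which chains wind around each other into a stiff helix, with glycine recurring at a fixed spacing and hydroxylated prolines holding the helix together. Fibrillar collagens form the cables of connective tissue, type IV forms the sheet of basement membranes, and FACIT chains decorate fibril surfaces. In the early pancreas much of the collagen is made by the mesenchyme and by vessels around the branching epithelium, and the basement membrane lies where they meet. In whole organ RNA, fewer cells of a type and less RNA per cell cannot be told apart.

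Levels are log2 values as deposited, made by RMA (background correction, normalization between arrays and a probe summary). A difference of 1 is a doubling, and low values sit near a background floor that compresses differences. Null arrays correlated less with each other (0.980 to 0.987, Pearson across probe sets) than control arrays did (0.994 to 0.995), and on the first principal component null 3 lay on the side of the controls. Hoxb6 read 8.78 to 9.36 in control and 8.25 to 8.91 in null arrays, with overlap. The 3 probe sets of Hoxc6 were higher on average in null arrays, by 0.47, 0.73 and 0.13, and the second of them read 3.91 to 4.25 in control and 4.59 to 5.38 in null arrays, with no overlap (unadjusted p of 0.0132, adjusted p of 0.253, limma over all probe sets). No Hoxb6 or Hoxc6 probe set passed the test and Hoxa6 was not analysed here. Where the probe sets lie relative to the disruption is not known from the labels, so that these values do not check the genotypes. The pancreatic transcription factor Pdx1 was measured at 8.24 to 8.62 in control and 8.78 to 9.97 in null arrays. The mean level of 18 epithelium markers was 8.12 to 8.24 in control and 8.20 to 9.14 in null arrays, with null 3 at 8.20, among the controls.

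Most collagen genes were lower on average in Hox6 null pancreas, but none passed the test over all genes. Of 42 genes 28 had a negative change, against 44.0% of all genes measured, and the median change was -0.19 on the log2 scale, against +0.033 for all genes. With an adjusted p under 0.05, 0 of 42 collagen genes were called (limma, Benjamini-Hochberg over all genes), where 13 of all genes or 0.0715% were (0.0660% lower and 0.00550% higher). With an unadjusted p under 0.05 there were 14 lower collagen genes, against 8.24% of all genes, and 4 higher ones, against 8.73%. In 17 collagen genes every null array lay below every control array, against 11.7% of all genes, and in 3 every null array lay above, against 12.2%. The smallest adjusted p of any member was 0.102, for Col12a1. These are counts over genes that share the same 6 arrays, and the counts themselves were not tested.

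The direction of a collagen gene went with its level. On group means, the dimmer of all genes tended upwards in null arrays and the brighter ones slightly downwards. Of genes at or above the median level of all genes 57.7% had a negative change, and of genes below it 30.3%. The upward tendency lay in null 1 and null 2. The median deviation of dimmer genes from the control mean was +0.20, +0.11 and +0.018 in null 1, 2 and 3. In control 1, 2 and 3 it was +0.022, -0.010 and -0.013, so that null 3 lay among the controls. Of the 27 collagen genes at or above the median level, 22 were negative with a median of -0.31, against -0.037 for all genes of that level. At an unadjusted p under 0.05 (limma) 13 were lower, against 10.5% of genes of that level, and 1 was higher, against 4.95%. In 16 of the 27 the null arrays lay wholly below the controls, against 17.1%. Of the 15 dimmer collagen genes 6 were negative, with a median of +0.057, against +0.12 for all dimmer genes. Of the 14 lower genes 13 were thus among the brighter, and of the 4 higher genes 1. Among the 15 dimmer collagen genes 1 was lower and 3 were higher at an unadjusted p under 0.05 (limma). Of all 9096 dimmer genes 546 were lower and 1139 higher.

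**Figure D1:**
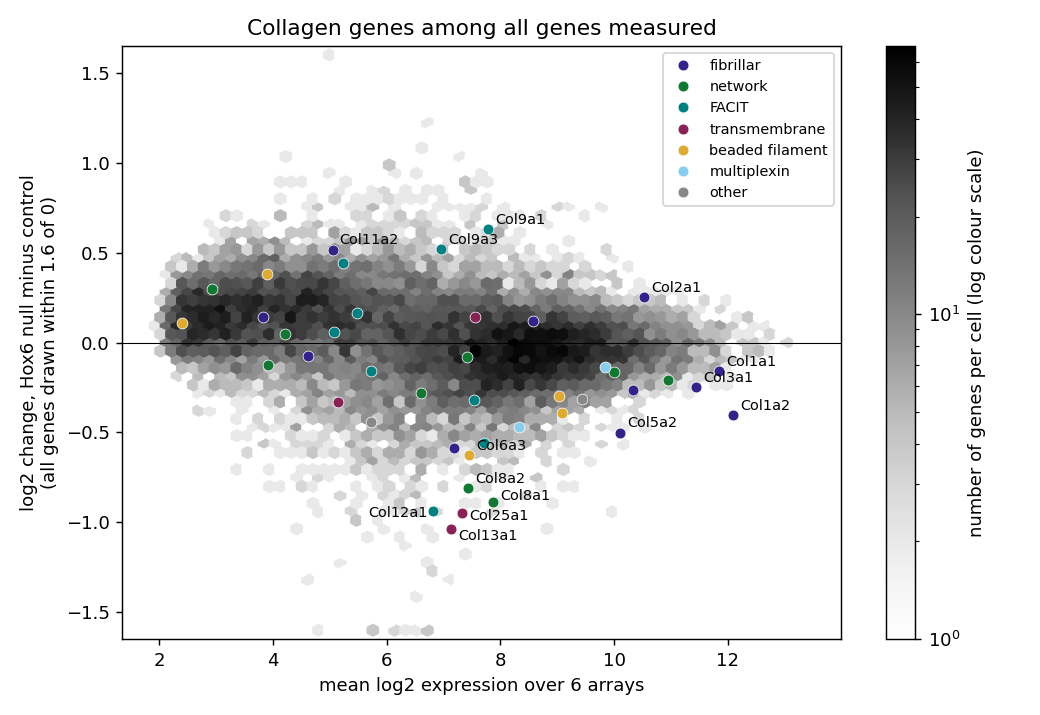
Log2 change (Hox6 null minus control) against mean log2 expression over 6 arrays for all genes (grey cells, darker for more genes, log colour scale; larger changes drawn at the edge) and the 42 collagen genes (points coloured by class). The 5 lowest collagen genes, Col13a1, Col25a1, Col12a1, Col8a1 and Col8a2, lie between -0.81 and -1.04 at middle levels, and most dim collagens lie near or above 0.

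The fibrillar collagens of connective tissue were lower by small amounts at high levels. Type I collagen, the main fibril of bone, tendon and loose mesenchyme, is made of products of Col1a1 and Col1a2. Col1a2 read 12.29, 12.33 and 12.23 in control arrays and 11.74, 11.83 and 12.07 in null arrays, a difference of -0.40 ± 0.11 (SE) and an adjusted p of 0.192 (limma). The 3 control arrays lay within 0.10 of each other and all null arrays below them, with null 3 the closest. Col1a1 read 11.88, 11.98 and 11.90 in control arrays and 11.77, 11.82 and 11.70 in null arrays, a difference of -0.16 ± 0.091 (SE) and an adjusted p of 0.401. Its groups did not overlap either, but its other probe set differed by 0.0040 with mixed arrays, while the other probe sets of Col1a2 gave -0.61 and -0.35. A lower mean was therefore seen by all probe sets of Col1a2 and by 1 of 2 of Col1a1. The groups overlapped for the Col1a2 probe set at -0.35, which read 6.11 to 6.76 in control and 5.82 to 6.42 in null arrays. Col3a1, the chain of type III that accompanies type I in soft tissue, read 11.55, 11.58 and 11.55 in control arrays and 11.29, 11.36 and 11.30 in null arrays, a difference of -0.25 ± 0.086 (SE) with an adjusted p of 0.246 and non-overlapping groups. Its second probe set gave -0.56.

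Type V collagen sits inside type I fibrils and sets their diameter. Its chain gene Col5a2, the neighbour of Col3a1 on chromosome 1, read 10.26, 10.53 and 10.26 in control arrays and 9.64, 9.92 and 9.99 in null arrays, a difference of -0.50 ± 0.13 (SE) and an adjusted p of 0.182. Col5a1 read 10.54, 10.50 and 10.36 in control arrays and 10.04, 10.30 and 10.27 in null arrays, a difference of -0.26 ± 0.11 (SE) and an adjusted p of 0.296. In both genes the null arrays lay below all controls, while the third chain gene, Col5a3, was dim in all arrays (3.73 to 3.97) and differed by +0.14 ± 0.10. All 3 probe sets of Col5a1 and both of Col5a2 were negative. The groups were separate for both of Col5a2 but overlapped for the Col5a1 probe sets at -0.30 and -0.21.

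The fibrillar genes best known from cartilage were split in direction. Col11a1, whose chain nucleates thin fibrils, read 7.58, 7.45 and 7.38 in control arrays and 6.60, 6.80 and 7.26 in null arrays, a difference of -0.59 ± 0.17 (SE) with an adjusted p of 0.206, and its dimmer probe set gave -1.09. Null 3 was the highest null array, 0.12 below the lowest control. Its partner chain Col11a2 went the other way, with 4.78, 4.60 and 5.00 in control arrays and 5.69, 5.17 and 5.06 in null arrays, a difference of +0.52 ± 0.19 (SE) and an adjusted p of 0.258; its null arrays lay above the controls, null 3 by 0.06. Col2a1, which encodes the main cartilage fibril and also a chain of type XI, read 10.28, 10.47 and 10.45 in control arrays and 11.04, 10.60 and 10.32 in null arrays, a difference of +0.25 ± 0.18 and groups that overlapped. Null 1 and null 2 were the arrays above all controls, and null 3 lay among the controls. The remaining fibrillar genes, Col24a1 (-0.072) and Col27a1 (+0.12), overlapped.

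Of the network-forming collagens the type VIII chains stood lowest. Type VIII is a short-chain collagen of vessel walls and of the sheet beneath corneal endothelium, assembled from the products of Col8a1 and Col8a2. Col8a1 read 8.40, 8.37 and 8.16 in control arrays and 6.94, 7.61 and 7.72 in null arrays, a difference of -0.89 ± 0.21 (SE) or 1.85-fold lower, with an adjusted p of 0.164. Col8a2 read 7.91, 7.72 and 7.90 in control arrays and 6.76, 7.12 and 7.23 in null arrays, a difference of -0.81 ± 0.14 (SE) or 1.75-fold lower, with an adjusted p of 0.116. In both genes the order of the null arrays was the same, with null 1 lowest and null 3 highest, and every null array lay at least 0.44 below every control. The 3 probe sets of Col8a1 gave -0.68, -0.89 and -1.20.

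The 250 bases before the annotated start of these genes are shown because both chains stood lower by a similar amount although the genes lie on different chromosomes. Sequences are from RefSeq (GRCm38.p6), printed 5′ to 3′ on the gene's strand, Col8a1 at chr16:57754738-57754987, minus strand and Col8a2 at chr4:126286544-126286793, plus strand. Capitals mark matches to GGGCGG, to CCAAT and to TATAAA on either strand, and matches may overlap:
Col8a1: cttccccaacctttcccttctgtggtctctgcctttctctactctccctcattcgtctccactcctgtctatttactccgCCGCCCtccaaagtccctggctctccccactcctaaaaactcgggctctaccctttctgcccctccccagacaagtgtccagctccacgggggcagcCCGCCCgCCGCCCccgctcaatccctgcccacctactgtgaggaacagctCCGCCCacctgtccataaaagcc
Col8a2: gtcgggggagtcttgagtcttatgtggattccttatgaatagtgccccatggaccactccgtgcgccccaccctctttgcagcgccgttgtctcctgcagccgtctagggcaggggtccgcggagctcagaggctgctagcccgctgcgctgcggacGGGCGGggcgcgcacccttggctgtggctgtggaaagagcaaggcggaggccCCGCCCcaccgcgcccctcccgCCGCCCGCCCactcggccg
Each window held 4 matches to GGGCGG, the letters of a GC box, and 0 to CCAAT or TATAAA. At least 4 matches were found in 2 of 36 collagen windows, these 2, and in 4.09% of 32851 windows of all genes, a similar share. This feature was singled out after the windows had been read, and nothing is drawn from it. At least 1 GGGCGG was found in 21 of 36 collagen windows (58.3%) and 32.7% of all windows, CCAAT in 36.1% and 33.8%, and TATAAA in 13.9% and 12.4%. Windows were found for 33 of the 42 genes, some with more than 1 start. A match is a run of letters and shows no binding.

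Type IV collagen, the sheet of basement membranes, differed by less. Col4a1 read 11.01, 11.12 and 11.01 in control arrays and 10.87, 10.76 and 10.89 in null arrays, a difference of -0.21 ± 0.093 (SE) and an adjusted p of 0.313. Col4a2, its partner in the common type IV protomer and its head-to-head neighbour on chromosome 8, read 10.08, 10.04 and 10.13 in control arrays and 9.95, 9.84 and 9.96 in null arrays, a difference of -0.17 ± 0.091 (SE) and an adjusted p of 0.386. In both the null arrays lay below all controls, by 0.12 and 0.083 at the closest, and the second probe set of Col4a1 gave -0.22. Col4a5, a chain of other protomers, stood at -0.079 with overlap on its brightest probe set. Its other probe set read 7.33, 7.33 and 7.26 in control arrays and 6.64, 7.15 and 6.93 in null arrays, a difference of -0.40 with all null arrays below all controls and an adjusted p of 0.286 over all probe sets (limma). Col4a6 stood at -0.28 and the dim Col4a4 at -0.13, both with overlap. Col4a3 had an unadjusted p under 0.05 at +0.30 ± 0.12, but read 2.63 to 3.19 on all arrays with overlapping groups. Col10a1, the chain of hypertrophic cartilage, read 4.08 to 4.34 and differed by +0.048.

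The FACIT collagens divided into lower and higher members. Col12a1, whose product bridges fibrils in dense connective tissue and embryonic mesenchyme, had the smallest adjusted p of all collagens. It read 7.47, 7.10 and 7.30 in control arrays and 6.27, 6.16 and 6.63 in null arrays, a difference of -0.94 ± 0.16 (SE) or 1.92-fold lower, with an adjusted p of 0.102. The highest null array, null 3, was 0.47 below the lowest control. The other 3 probe sets gave -0.56, -0.26 and +0.018, the last at 3.18 to 3.79. The groups overlapped for those at -0.26 and +0.018. Col14a1, a close relative with a similar place on fibrils, read 7.84, 8.14 and 7.99 in control arrays and 6.96, 7.61 and 7.72 in null arrays, a difference of -0.56 ± 0.21 (SE) and an adjusted p of 0.261; all 3 probe sets were negative. Col16a1 read 7.68, 7.81 and 7.62 in control arrays and 7.40, 7.41 and 7.33 in null arrays, a difference of -0.32 ± 0.10 (SE) and an adjusted p of 0.206. Its 3 null arrays lay within 0.074 of each other, null 3 the lowest.

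The type IX chains, which coat type II fibrils in cartilage, were higher on average. Col9a1 read 7.25, 7.65 and 7.51 in control arrays and 8.44, 8.04 and 7.83 in null arrays, a difference of +0.63 ± 0.18 (SE) with an adjusted p of 0.199, the largest positive change among the collagens. Its null arrays lay above all controls and its second probe set gave +0.82. Col9a3 read 6.91, 6.67 and 6.52 in control arrays and 7.86, 7.16 and 6.65 in null arrays, a difference of +0.52 ± 0.29, with null 1 and null 2 above all controls and null 3 among the controls. Col9a2 read 5.51, 5.15 and 5.51 in control arrays and 5.82, 5.59 and 5.25 in null arrays, a difference of +0.16 ± 0.17, again with null 3 among the controls. Of the 3 chain genes Col9a1 alone had groups that did not overlap. Col20a1 also lay higher, with 4.99, 5.05 and 4.98 in control arrays and 5.82, 5.34 and 5.19 in null arrays. The difference was +0.44 ± 0.17 (SE), with an adjusted p of 0.263 (limma). Its other 3 probe sets gave +0.13, +0.33 and +0.37, all with overlapping groups. Col19a1 (+0.057) and Col22a1 (-0.16) overlapped.

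RefSeq lists more than 1 start for Col9a1, and the windows before them are shown because this gene had the largest positive change; the probe sets were not assigned to a start here. The first window is chr1:24177360-24177609, plus strand and the second, inside the gene, chr1:24194953-24195202, plus strand. Col1a2, at chr6:4505368-4505617, plus strand, is printed beside them as the brightest of the lower fibrillar genes, with the same capitals:
Col9a1, first start: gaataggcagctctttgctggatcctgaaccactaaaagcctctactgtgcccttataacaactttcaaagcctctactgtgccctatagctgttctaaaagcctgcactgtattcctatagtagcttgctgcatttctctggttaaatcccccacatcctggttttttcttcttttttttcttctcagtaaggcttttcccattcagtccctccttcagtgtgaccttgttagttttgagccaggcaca
Col9a1, second start: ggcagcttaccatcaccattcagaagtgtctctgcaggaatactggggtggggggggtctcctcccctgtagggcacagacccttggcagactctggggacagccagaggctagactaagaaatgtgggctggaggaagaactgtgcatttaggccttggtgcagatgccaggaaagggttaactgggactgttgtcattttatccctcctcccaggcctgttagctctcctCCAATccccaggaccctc
Col1a2: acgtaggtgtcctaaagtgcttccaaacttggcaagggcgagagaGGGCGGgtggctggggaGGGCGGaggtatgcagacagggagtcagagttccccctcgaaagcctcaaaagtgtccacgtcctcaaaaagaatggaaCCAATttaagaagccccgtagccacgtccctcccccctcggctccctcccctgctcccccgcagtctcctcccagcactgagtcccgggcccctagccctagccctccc
Of these windows Col1a2 held 2 matches to GGGCGG and 1 to CCAAT, the second window of Col9a1 held 1 to CCAAT, and the first held none of the 3 motifs.

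Transmembrane collagens span the cell membrane and can be shed from it. They held the lowest single member, Col13a1, whose product lies at cell contacts and at the neuromuscular junction. It read 7.88, 7.47 and 7.59 in control arrays and 6.11, 6.53 and 7.18 in null arrays, a difference of -1.04 ± 0.26 (SE) or 2.05-fold lower, with an adjusted p of 0.176. Null 1 was 1.07 below null 3, and null 3 was 0.29 below the lowest control. Col25a1, a membrane collagen of neurons and developing muscle, read 7.73, 8.16 and 7.53 in control arrays and 6.94, 6.19 and 7.45 in null arrays, a difference of -0.95 ± 0.32 (SE) with an adjusted p of 0.236. Null 3 lay 0.081 below the lowest control, and the second probe set gave -0.057 with overlapping groups, so the difference of Col25a1 rested on 1 of its 2 probe sets. Col17a1, the hemidesmosome collagen of surface epithelia, stood at -0.33 ± 0.18 with overlap. Col23a1 stood at +0.14 ± 0.30, where null 3 (8.39) was above all other arrays (7.25 to 7.64) on this probe set; the other probe sets gave 0.043 and 0.22.

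Type VI collagen forms beaded filaments around cells from 3 chains, of which Col6a3 was the clearest. It read 7.63, 8.11 and 7.54 in control arrays and 7.39, 7.35 and 6.65 in null arrays, a difference of -0.63 ± 0.24 (SE) and an adjusted p of 0.265. Null 3 was the lowest array. Col6a1 read 9.13, 9.78 and 8.93 in control arrays and 9.05, 9.37 and 8.23 in null arrays, a difference of -0.39 ± 0.33, and Col6a2 read 9.05, 9.83 and 8.68 in control arrays and 8.85, 9.21 and 8.61 in null arrays, a difference of -0.30 ± 0.30. For these neighbours on chromosome 10 the groups overlapped, and control 2 was the highest of the 6 arrays for all 3 chain genes. Without control 2 the change of Col6a2 turned from -0.30 to 0.025. The further chains Col6a4 (+0.38) and Col6a5 (+0.11) were dim, at 2.30 to 4.32.

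The remaining collagens were lower on average. Col15a1, a multiplexin of vascular and muscle basement membranes, read 8.60, 8.42 and 8.65 in control arrays and 7.79, 7.99 and 8.47 in null arrays, a difference of -0.47 ± 0.18; it had an unadjusted p under 0.05, but null 3 lay above control 2. Col18a1, the other multiplexin and precursor of the fragment endostatin, stood at -0.14 ± 0.11 with overlap. Col7a1, the anchoring fibril collagen beneath epithelia, read 5.97, 6.07 and 5.78 in control arrays and 5.70, 5.13 and 5.67 in null arrays, a difference of -0.44 ± 0.17 (SE) with an adjusted p of 0.274 and non-overlapping groups at a rather low level. Col26a1 stood at -0.31 ± 0.21 with overlap, and its second probe set gave +0.083.

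**Figure D2:**
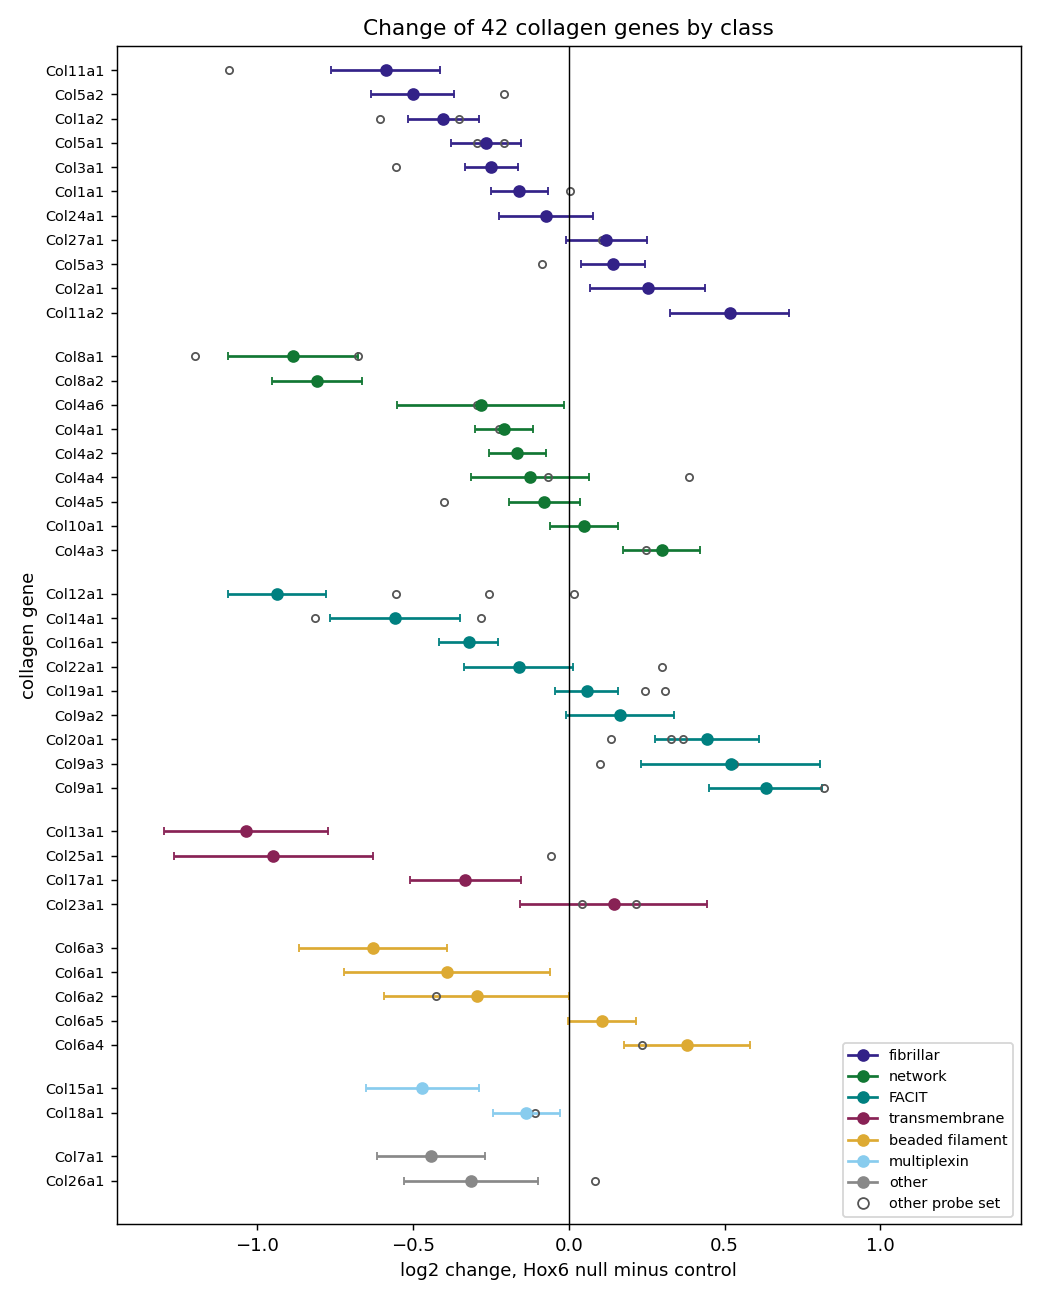
Log2 change (Hox6 null minus control, filled points) with its standard error (bars) for each of the 42 collagen genes, grouped by class, with the gene's other probe sets as open points. The 13 lower genes with separate groups and an unadjusted p under 0.05 lie between -1.04 and -0.25, and the 3 higher ones between 0.44 and 0.63.

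Several probe sets of a gene mostly gave 1 direction. Of 27 collagen genes with more than 1 probe set, all probe sets had the same sign in 21. The exceptions were Col12a1, Col1a1, Col22a1, Col26a1, Col4a4 and Col5a3. Over all 82 collagen probe sets 50 were negative, and at an unadjusted p under 0.05 23 were lower, against 6.79% of all probe sets, and 4 higher, against 8.17%. None passed with an adjusted p under 0.05 over all probe sets, where 1 of all 45037 (0.00222%) did (limma). In gene order (protein-coding genes of GRCm38.p6), 8 pairs of collagen genes are direct neighbours. Of the 7 pairs with both genes measured, 4 had negative changes in both genes: Col3a1 with Col5a2, Col4a1 with Col4a2, Col6a1 with Col6a2 and Col4a5 with Col4a6. Both changes were positive for Col9a1 with Col19a1 and Col6a4 with Col6a5, and they had opposite signs for Col4a3 with Col4a4. Most collagens are negative in any case, and nothing is drawn from these counts.

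**Figure D3:**
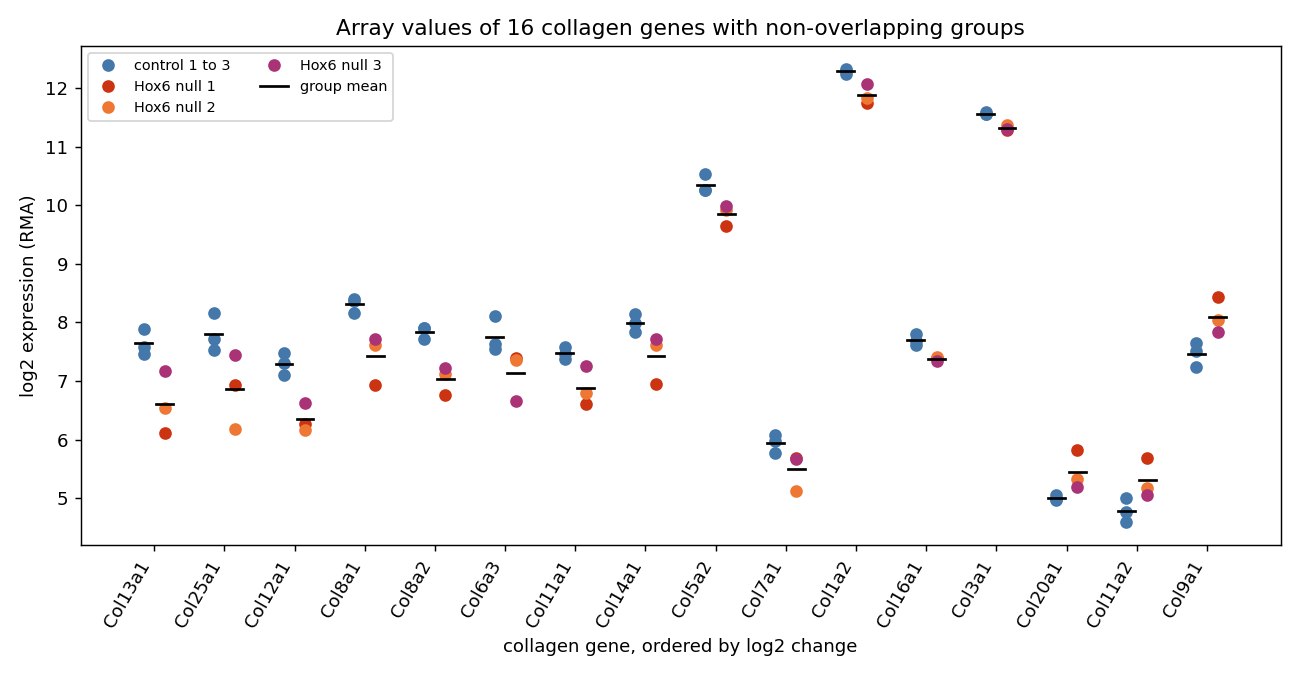
Log2 expression of the 16 collagen genes whose groups did not overlap and whose unadjusted p was under 0.05, ordered by log2 change, for each control array (blue) and each Hox6 null array (red, orange and purple), with group means (lines). For most of the lower genes null 3 (purple) is the null array nearest the controls, while for Col6a3 and Col16a1 it is the lowest.

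Genes that make, cross-link and remodel collagen were read from a list of 52 genes, of which 47 were measured. None passed over all genes (limma), 10 had an unadjusted p under 0.05 and were lower, against 8.24% of all genes, and 5 were higher, against 8.73%, a share near that of all genes; the median change was -0.086. The lysyl oxidases, which cross-link finished fibrils, stood lowest, with all 4 measured members negative and a median of -0.37. Lox read 6.91, 6.39 and 6.35 in control arrays and 5.04, 5.32 and 5.40 in null arrays, a difference of -1.30 ± 0.18 (SE) and an adjusted p of 0.0711, and Loxl1 read 9.48, 9.49 and 9.41 in control arrays and 8.92, 8.92 and 8.76 in null arrays, a difference of -0.59 ± 0.095 (SE) and an adjusted p of 0.0874. For Lox every null array was at least 0.95 below every control, null 3 included. Loxl3 (-0.14) and Loxl4 (-0.066) overlapped.

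The enzymes that modify new chains in the endoplasmic reticulum had a median near 0: 9 of 13 were negative with a value of -0.051. P3h2 and P3h1, prolyl 3-hydroxylases, stood at -0.54 ± 0.12 (SE) and -0.31 ± 0.10 with separate groups, and Colgalt2, a galactosyltransferase of collagen, at +0.43 ± 0.16 in the other direction. The lysyl hydroxylase Plod3 (-0.091) overlapped, and all adjusted p in this group were at least 0.161. Of 8 folding and export genes 3 were negative, with a median of +0.020. Mia3 and Mia2, which load large cargo at the exit sites of the endoplasmic reticulum, stood at +0.37 ± 0.089 and +1.11 ± 0.28, and the isomerase Fkbp14 and the coat protein gene Sec23a at -0.49 ± 0.17 and -0.33 ± 0.13. The collagen chaperone Serpinh1 differed by +0.022 ± 0.10, which leaves room for small differences either way; it was named after its value had been seen.

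Among 6 measured genes that cleave propeptides 3 were negative, with a median of +0.011. The procollagen protease Adamts3 stood lowest at -0.75 ± 0.24 with separate groups, while Bmp1, which removes the other end, stood at +0.15 ± 0.10, Tll2 at +0.22 and Pcolce2 at +0.39. Of 9 collagen receptor genes 8 were negative (median -0.12). Itga1, the integrin chain that binds type IV collagen, read 6.29 to 6.78 in control and 5.84 to 6.17 in null arrays, a difference of -0.61 ± 0.16 (SE) with an adjusted p of 0.182. Ddr1, a collagen receptor kinase of epithelia, was the one positive member at +0.29 ± 0.12, and Mrc2 and Itga2 stood at -0.31 and -0.28 with overlap. Of 7 collagenases and other collagen-degrading proteases 6 were negative (median -0.074): Mmp14 at -0.25 ± 0.089 with separate groups, Mmp2 at -0.36 and Mmp9 at -0.074 with overlap. Mmp1a was the positive member at +0.39, but read 1.96 to 2.56, near the floor of the arrays.

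Lists of markers for the cells that make and surround collagen also stood apart in null arrays, some of them in null 1 and null 2 alone. Of all genes 44.0% had a negative change, and of those at or above the median level 57.7%. Of 13 mesenchyme markers 11 were negative with a median of -0.23. Their mean level was 8.79 to 9.05 in control and 8.42 to 8.86 in null arrays, and null 3 lay among the controls. At an unadjusted p under 0.05, 1 marker, Twist1, was lower (limma), against 8.24% of all genes. All 12 endothelium markers were negative with a median of -0.57, at a mean level of 8.15 to 8.28 in control and 7.37 to 7.88 in null arrays, and all 11 macrophage markers were negative, at 8.22 to 8.27 in control and 7.27 to 7.79 in null arrays. The endothelium markers Tek (-1.13) and Clec14a (-0.92) and the macrophage marker Adgre1 (-1.35) were among the 13 genes that passed over all genes. Of 8 mesothelium markers 7 were negative (7.50 to 7.69 in control and 6.82 to 7.03 in null arrays), and of 9 smooth muscle and pericyte markers 8 (7.36 to 7.61 in control and 7.05 to 7.13 in null arrays). Of 18 epithelium markers 17 were positive, with a median of +0.60 but null arrays at +0.95, +0.86 and +0.027 relative to the control mean. The brighter collagen genes stood at -0.34, -0.29 and -0.22 in the same arrays. For them null 3 lay below the controls, while its epithelium markers lay among the controls. By the same measure its mesenchyme markers (+0.0095) also lay among the controls. Its endothelium (-0.27), macrophage (-0.49), mesothelium (-0.39) and smooth muscle and pericyte markers (-0.30) lay below them, as the brighter collagens did. Null 3 was below all controls for 24 of 42 collagen genes, against 31.8% of all genes, and above for 7, against 30.6%. The part of these cell types in the collagen values was not tested. The fits given next cannot fully separate a marker list from genotype. Epithelium levels of null 1 and null 2 lay above all controls, and endothelium levels of all null arrays lay below them. No other marker list was used as a covariate.

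**Figure D4:**
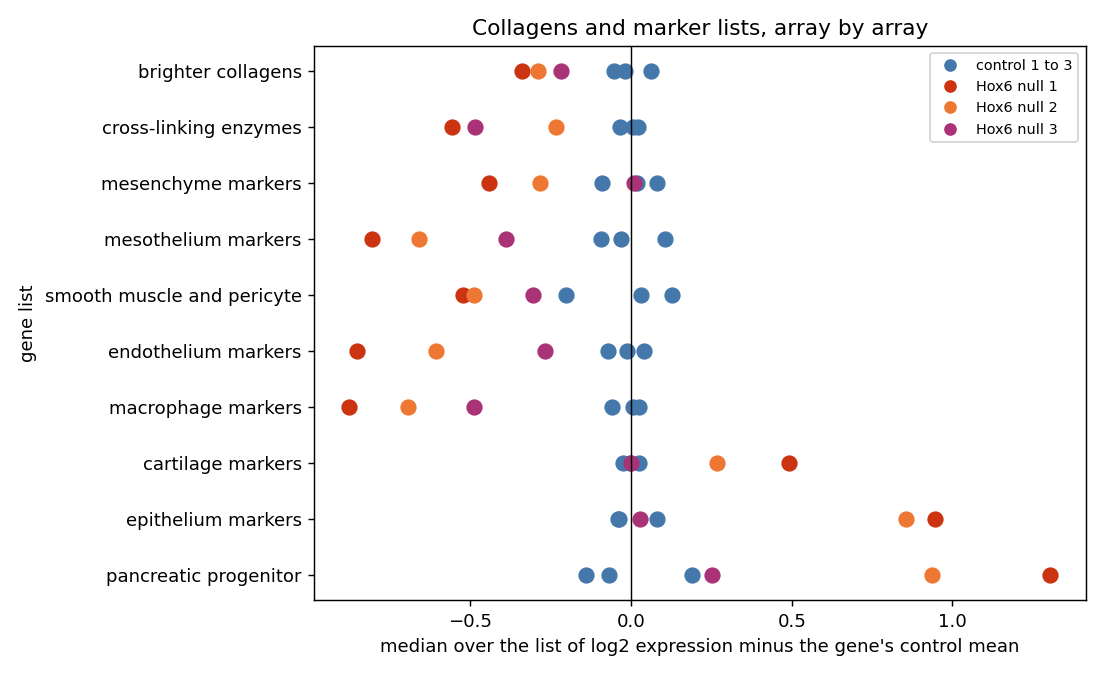
Median over each gene list of log2 expression minus the gene's control mean, for each control array (blue) and each Hox6 null array (red, orange and purple). The brighter collagens stand at -0.34, -0.29 and -0.22 in null arrays 1, 2 and 3, whereas epithelium markers stand at +0.95, +0.86 and +0.027. In null 3 mesenchyme markers stand at +0.0095, endothelium at -0.27, macrophage at -0.49, mesothelium at -0.39 and smooth muscle and pericyte markers at -0.30.

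With the mean level of the epithelium markers as a covariate, 6 collagen genes were lower at an unadjusted p under 0.05, against 5.99% of all genes in that fit, in place of 14. These were Col12a1 (-0.70), Col8a2 (-0.59), Col16a1 (-0.36), Col6a3 (-1.08), Col6a1 (-0.98) and Col17a1 (-0.69). Col6a1 and Col17a1 were not among the 14 of the fit without a covariate. Of the 18 genes with an unadjusted p under 0.05 in that fit, lower or higher, 4 kept such a p here (limma). Col13a1 went from -1.04 to -0.45, Col11a1 from -0.59 to -0.21 and Col9a1 from +0.63 to +0.35, while Col3a1 stayed near its value (-0.25 and -0.26). Col23a1 was the single higher gene, against 5.23%. Col9a3 and Col2a1 turned from +0.52 and +0.25 to -0.14 and -0.11. No collagen gene passed with an adjusted p under 0.05 in this fit, and 32 of 42 were negative, against 52.7% of all genes. The endothelium markers, whose levels separate the groups completely, were the covariate of a further fit. There 4 collagen genes were lower and 1 was higher at an unadjusted p under 0.05, against 7.49% and 4.73% of all genes. In that fit 29 of 42 were negative, against 55.2%. Of the 18 genes with an unadjusted p under 0.05 without a covariate, 12 kept their sign and 1 kept such a p (limma).

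The cartilage-type collagens were set beside markers of cartilage. Of 12 cartilage markers 10 were positive with a median of +0.24, and their mean level was 4.94 to 5.07 in control and 5.01 to 5.45 in null arrays, with null 3 among the controls. Hapln1 (-0.21) and Prg4 (-0.094) were negative. At an unadjusted p under 0.05, 1 of the 12, Acan, was higher (limma), against 8.73% of all genes. The level of 5 markers was below the lower quartile of all genes. Genes below the median level tended upwards in any case, with 30.3% negative and a median of +0.12. In null 3 their median deviation from the control mean was +0.018, among the controls. Acan, the cartilage proteoglycan aggrecan, stood at +1.04 ± 0.33 (SE) with separate groups, null 3 by 0.014 above the highest control, while the cartilage matrix genes Matn1 and Matn3 read 2.35 to 2.93 and 2.56 to 3.31, near the floor. Sox9, a transcription factor of both pancreatic progenitors and cartilage, read 8.61, 8.55 and 8.30 in control arrays and 9.59, 9.18 and 8.78 in null arrays, a difference of +0.70 ± 0.21 (SE) with an adjusted p of 0.206. For Sox9, Col9a1, Col9a3, Col2a1 and Col11a2 null 1 was the highest array and null 2 the next. With the epithelium covariate Col9a1 and Col11a2 stood at +0.35 and +0.21, and Col9a3 and Col2a1 at -0.14 and -0.11. That fit cannot fully separate the epithelium markers from genotype. The part of cartilage or epithelium in these values was therefore not tested.

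The number of collagen genes that passed depended on single arrays. Without null 3 the count with an adjusted p under 0.05 went from 0 to 10, of which 8 were lower and 2 higher, against 8.44% of all genes (limma, 4.02% lower and 4.42% higher). The 8 were Col11a1, Col12a1, Col13a1, Col15a1, Col1a2, Col25a1, Col8a1 and Col8a2, and the 2 were Col9a1 and Col6a4. Col13a1 then stood at -1.32 and Col12a1 at -1.07, while Col6a3 went from -0.63 to -0.39 and did not pass. With null 3 as the only null array, a choice made after the data had been seen, 9 collagen genes were lower and 1 higher at an unadjusted p under 0.05, against 8.15% and 7.18% of all genes, and 32 of 42 were negative, against 51.1%. Without control 2 the 14 lower genes became 9, while the share of all genes went from 8.24% to 5.67%. The 4 higher genes became 1 without control 1, where 5.92% of all genes were higher. They became 2 without control 2 (4.76% of all genes), without control 3 (4.89%) and without null 1 (6.60%), and 8 without null 3 (16.8%). The counts over all genes thus moved in the same direction as those of the collagens in each of these fits that left out 1 array.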

How the data were processed

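Whole pancreas RNA of 3 control and 3 Hox6 null samples was amplified from 10 ng and hybridised to Affymetrix arrays, 1 a sample, per the labels' protocols. The authors deposited log2 expression values per probe set, and the submitters' processing notes name RMA, affy and limma. The genome build of the probe annotation is not given in the sources used here. The values were used as deposited, since RMA already normalizes between arrays. Of 45101 probe sets, 64 array controls were left out; 34945 of the rest had 1 gene symbol in the platform annotation, 932 several and 9160 none listed. Genotype was the single term of a linear model fitted over 18193 genes, and again over 45037 probe sets, with limma 3.58.1 (lmFit, eBayes, two-sided, Benjamini-Hochberg, threshold 0.05) in R 4.3.3, tested on simulated data. An exact permutation test of 3 against 3 cannot go below a p of 0.1 and was not used. No detection calls were used; precision is limited by the count of arrays. The members and gene lists were chosen with earlier results of these data known. Array values are given for members with an unadjusted p under 0.05 and separate groups, for the largest opposite changes and for partner chains, and up to 4 genes by smallest p are named from each pathway list; other names are members or list markers chosen after their values were seen. The fit was repeated with other filters, scalings, priors, array weights, probe sets, covariates and a replicate block, and leaving out single arrays.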

Additional observations from a re-analysis of the deposited data

How the results depend on the processing

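Of 42 collagen genes 22 turned in sign under at least 1 of 17 alternatives; for none of them was the cause tested. With genes below the median level left out, the sign turned for the median of FACIT collagens (-0.32) and the median of propeptide cleavage genes (-0.019). With quantile normalization repeated, the sign turned for the median of FACIT collagens (-0.00016), the median of propeptide cleavage genes (-0.027), Col10a1 (-0.042), Col19a1 (-0.00016) and Col6a5 (-0.0051). With median centring, the sign turned for the median of propeptide cleavage genes (-0.00098). With array weights, the sign turned for the median of propeptide cleavage genes (-0.029) and Col23a1 (-0.029). With the mean of a gene's probe sets, the sign turned for the median of folding and export genes (-0.025), the median of propeptide cleavage genes (-0.064) and Col4a4 (0.065). With the most variable probe set, the sign turned for the median of folding and export genes (-0.084), Col4a4 (0.39) and Col5a3 (-0.087). With the epithelium covariate, the sign turned for the median of FACIT collagens (-0.14), the median of folding and export genes (-0.0097), Col19a1 (-0.016), Col22a1 (0.14), Col24a1 (0.14), Col27a1 (-0.15), Col2a1 (-0.11), Col4a5 (0.034), Col6a4 (-0.074), Col6a5 (-0.058), Col9a2 (-0.19) and Col9a3 (-0.14). With the endothelium covariate, the sign turned for the median of FACIT collagens (-0.23), the median of multiplexins (0.13), the median of collagen receptor genes (0.088), Col11a1 (0.11), Col11a2 (-0.094), Col13a1 (0.084), Col14a1 (0.28), Col15a1 (0.33), Col19a1 (-0.13), Col20a1 (-0.23), Col22a1 (0.33), Col24a1 (0.43), Col26a1 (0.36), Col27a1 (-0.40), Col2a1 (-0.49), Col4a5 (0.10), Col6a4 (-0.39), Col6a5 (-0.16), Col9a2 (-0.48) and Col9a3 (-0.91). With null 3 as the only null array, assumed to vary like the controls, the sign turned for the median of FACIT collagens (-0.052), the median of folding and export genes (-0.0036), Col19a1 (-0.015), Col22a1 (0.17), Col24a1 (0.089), Col27a1 (-0.13), Col2a1 (-0.082), Col4a5 (0.011), Col6a4 (-0.049), Col6a5 (-0.057), Col9a2 (-0.14) and Col9a3 (-0.052). With single arrays left out it turned for some, and values ranged for Col10a1 from -0.0068 to 0.12, the median of beaded-filament collagens from -0.55 to 0.025, the median of folding and export genes from -0.0040 to 0.036, Col4a5 from -0.14 to 0.0094, Col6a2 from -0.55 to 0.025, Col24a1 from -0.16 to 0.10, Col4a4 from -0.34 to 0.014 and Col23a1 from -0.23 to 0.34. The 18 collagen genes with an unadjusted p under 0.05 kept their sign in each fit that held them, except that with the endothelium covariate, where 12 did. Of these 18, 4 kept an unadjusted p under 0.05 with the epithelium covariate and 1 with the endothelium covariate (limma). With single arrays left out, the count over all genes ranged from 0 to 1536, collagen genes past the threshold from 0 to 10, lower collagen genes at an unadjusted p under 0.05 from 9 to 15, higher ones from 1 to 8, and the collagen median from -0.19 to -0.15. In these fits the share of all genes at such a p ranged from 4.96% to 12.2% lower and from 4.76% to 16.8% higher. The count of all genes past the threshold was 13 and became 1 with repeated quantile normalization, 8 with median centring, 74 with the intensity trend and robust prior, 155 with array weights, 0 with the replicate block, 1 with the most variable probe set, 0 with the endothelium covariate and 70 with null 3 alone. Collagen genes past the threshold became 2 with array weights, Col12a1 and Col8a2. Lower collagen genes at an unadjusted p under 0.05 (limma) became 6 with the epithelium covariate, against 5.99% of all genes. They became 4 with the endothelium covariate, against 7.49%. Higher ones became 1 with either covariate, against 5.23% with the epithelium and 4.73% with the endothelium covariate. With dim genes left out 1 of 27 was higher, against 6.32% of all genes kept. The collagen median became -0.31 with dim genes left out, where 27 genes remained to be tested, -0.25 with the most variable probe set, -0.15 with the endothelium covariate and -0.15 with null 3 alone. Replicate numbers are shared between the groups, and the labels do not say whether they pair the samples. Deviations of same-numbered arrays correlated at 0.14, 0.0049 and 0.062, and 5 of 6 arrays correlated best with their own number. This is a hint from the data only, and the main fit did not use the numbers. With the replicate block 13 collagen genes were lower and 4 higher at an unadjusted p under 0.05, against 7.73% and 8.92% of all genes, and the count of all genes past the adjusted threshold was 0. Signal near the floor limits the dim members, whose differences are compressed.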
